A study of Oreochromis niloticus with 6 samples.

Results

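Growth arrest and p53 pathway genes were described in liver after knockdown of elovl6, a gene for an enzyme that lengthens fatty acids, in males of the Nile tilapia, a cichlid fish raised for food. The set holds 23 of the 29528 genes of the deposited table. A gene entered it when its product description named a GADD45 protein, cyclin G, cyclin-dependent kinase inhibitor 1, zinc finger matrin-type protein 3, Mdm2 or another p53 pathway protein, or when it was named gadd45b, gadd45g, zmat3 or ccng2. The set was chosen by measured values, because it was proposed after the difference between knockdown and control livers in these same libraries was known. All values for its genes in this comparison are therefore a description, and no p-value is given for them.

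There were 3 liver libraries from fish with elovl6 knocked down by antisense RNA and 3 from negative control fish, whose genotype label is WT. All fish were males and all were fed pellets with 5% palm oil, and no age is in the labels. The labels' protocols name 18 fish, 9 per group, and the pooling of equal RNA amounts across 3 tanks per group. They also carry the same knockdown text for both groups, so groups were taken from the titles and genotype labels. Nothing in the labels says that the libraries of a group came from separate fish, so p-values cover only the spread between these libraries, and that spread may be technical.

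GADD45 proteins are small, rapidly induced stress proteins with no enzyme activity of their own; in mammals they bind the kinase MAP3K4, cyclin-dependent kinase 1 and the replication clamp PCNA. The p53 pathway answers DNA damage and other stress with cell cycle arrest or cell death, and the ubiquitin ligase Mdm2 both restrains it and is induced by it. Genes for the cyclin-dependent kinase inhibitor p21, cyclin G1, the RNA-binding protein ZMAT3 and GADD45 alpha are classic p53 targets in mammals, while GADD45B, GADD45G and CCNG2 are known to be induced through other transcription factors too. CDK inhibitors of this family bind and block the kinases that drive the cell cycle.

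The libraries held 14341242 to 17245179 reads. Across genes, log2(FPKM + 1) correlated at 0.991 to 0.995 within groups and 0.786 to 0.794 between groups. FPKM is fragments per kilobase of exon, scaled to the library total, so levels can be set side by side between genes. The targeted gene was lower in every knockdown library, at 39.3, 36.9 and 36.6 FPKM against 163, 160 and 163 FPKM in the controls (edgeR's quasi-likelihood test, log2 fold change -2.12, SE 0.05, Benjamini-Hochberg adjusted p = 1.58e-22). The labelled tissue was checked with marker genes. Hepatocyte markers summed to 158106 to 158285 FPKM in knockdown and 178065 to 182010.0 FPKM in control libraries, with 17 of 29 tested markers lower and 11 higher. Several other marker lists moved with the groups. Among all tested genes, 39.1% were called higher and 39.1% lower. Exocrine pancreas markers summed to 259 to 428 FPKM in knockdown and 46359.9 to 47146 FPKM in control libraries, with 22 of 24 tested markers lower. Erythrocyte markers summed to 1569 to 1733 against 9253 to 9535 FPKM, with 10 of 11 lower. Leukocyte markers summed to 849 to 862 against 315 to 337 FPKM, with 15 of 17 higher. Endothelial and stellate markers summed to 129.9 to 138 against 59.2 to 62.0 FPKM, with 12 of 15 higher. Biliary markers summed to 951 to 991 against 489 to 511 FPKM, with 9 of 9 higher. Markers without a read in any library numbered 1 for hepatocytes, 7 for pancreas, 13 for erythrocytes, 2 for leukocytes, 1 for endothelial and stellate cells and 3 for the biliary list. The part of these cell types in the values below was not tested, and in bulk tissue fewer cells of a type and less RNA per cell cannot be told apart.

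Of the 23 genes, 19 had at least 1 read and 17 reached the mean of 1 FPKM over the 6 libraries that was required for testing. Among those 17, edgeR called 12 higher and 3 lower in the knockdown livers at an adjusted p under 0.05, and 2 were not called. Of all 11431 tested genes 78.2% were called, 39.1% higher and 39.1% lower, and nothing is read from the count in the set. The FPKM ranges of the groups did not overlap for 16 of the 17, as for 79.5% of all tested genes. The sizes of the differences varied widely. In 5 genes the knockdown level was at least 8-fold above control, a size reached upward with a call by 3.56% of all tested genes. Another 4 differed by 2-fold to 8-fold in either direction and 8 by less than 2-fold. The median log2 fold change was 0.99 over the 17 and -0.01 over all tested genes. Nothing is read from these sizes or from the median either, because the set was proposed with this difference known. In 5 of the 17 (zmat3, ccng2, cdkn1b, LOC100711644 and LOC100707977) the control mean was under 1 FPKM, so that these passed the requirement only through their knockdown level and had to differ.

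**Figure D1:**
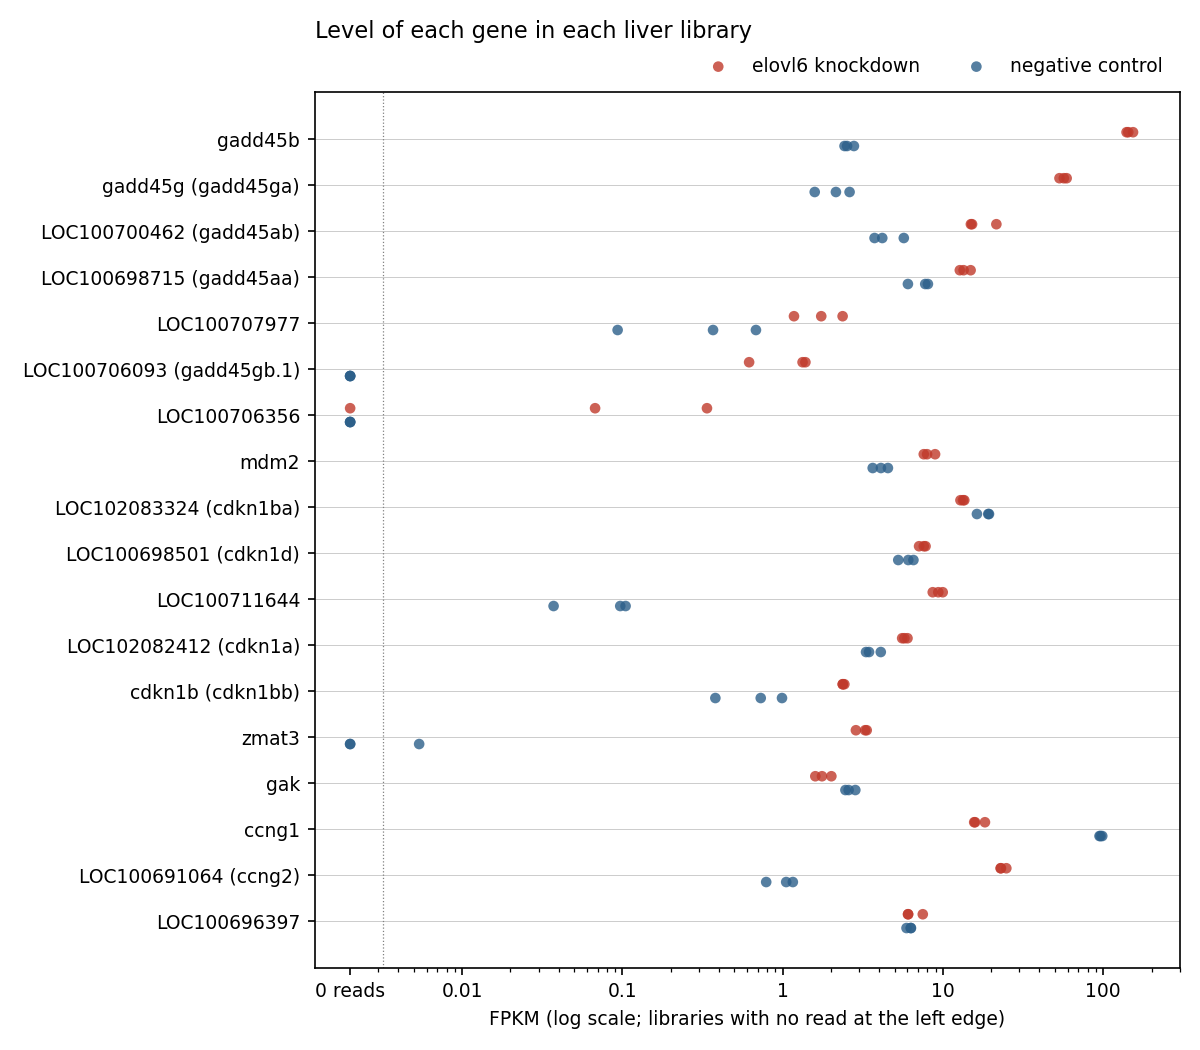
Level of 18 genes with reads in each library, as FPKM on a log axis, with red points for the 3 knockdown and blue points for the 3 control libraries. A RefSeq symbol stands in brackets where it differs from the file's name and is not a LOC number. Libraries without a read sit at the left edge. The red points of gadd45b lie at 140 to 153 FPKM and the blue ones at 2.43 to 2.78 FPKM, while ccng1 shows the opposite order.

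The 2 highest levels of the set after knockdown were those of GADD45 genes. The table describes 9 GADD45 genes, more than the usual mammalian set, with 5 tested, 2 read but below the requirement and 2 without a read. The 5 tested genes were all called higher in knockdown livers, beside 39.1% of all tested genes, and nothing is read from that count. LOC100707977 among them passed the requirement only through its knockdown level and had to differ.

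gadd45b (linkage group LG15, bases 37373679 to 37375349, minus strand) encodes GADD45 beta, a stress and growth factor response protein that in mice is induced in liver after partial hepatectomy. RefSeq lists gadd45b only as LOC100705173. It stood at 143, 153 and 140 FPKM in knockdown libraries 1, 2 and 3 and at 2.78, 2.52 and 2.43 FPKM in control libraries 1, 2 and 3. All knockdown libraries were far above all control libraries. The means were 145 ± 7.07 and 2.58 ± 0.182 FPKM (SD, n = 3 libraries each), from 7727 and 154 reads, a 56.0-fold difference (log2 fold change 5.81, SE 0.09).

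gadd45g (gadd45ga in RefSeq; LG12, bases 23405443 to 23406981, plus strand) encodes GADD45 gamma, a cytokine-inducible family member. Its levels were 56.7, 53.3 and 59.1 FPKM in the knockdown and 2.15, 1.58 and 2.61 FPKM in the control libraries. The groups were again well apart. The difference was 26.2-fold, from 2844 against 121 reads (56.4 ± 2.91 and 2.11 ± 0.515 FPKM, log2 fold change 4.71, SE 0.13).

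The file describes 2 genes as GADD45 alpha, the family member that in mammals is the best known direct p53 target. LOC100700462 (gadd45ab; LG23, bases 31139322 to 31140867) stood at 14.9, 15.2 and 21.5 FPKM against 3.74, 4.18 and 5.69 FPKM, 3.76-fold higher in the knockdown (log2 fold change 1.91, SE 0.19). LOC100698715 (gadd45aa; LG18, bases 10978007 to 10980973) stood at 13.4, 12.7 and 14.9 FPKM against 7.75, 6.04 and 8.05 FPKM, 1.86-fold higher (log2 fold change 0.90, SE 0.14). Both alpha genes kept their groups apart, with differences much smaller than those of gadd45b and gadd45g.

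The remaining GADD45 genes were near the limit of what these libraries show. LOC100707977, a further beta gene on LG19 (bases 18065486 to 18067640), stood at 1.18, 1.74 and 2.36 FPKM against 0.681, 0.368 and 0.0933 FPKM, from 96 and 23 reads. Its log2 fold change was 2.19 (SE 0.53), and it was 2.94 without control library 1. A pair described as GADD45 gamma lies 3972 bases apart on LG7. LOC100706093 (gadd45gb.1) had 27, 12 and 27 reads in the knockdown libraries and none in any control library. Against a floor of 3 reads over the 3 control libraries it was 24.7-fold higher after knockdown. That floor allows for counting error in the controls only, not in the knockdown reads. Its partner LOC100706356 had 5, 1 and 0 reads after knockdown and none in controls, which is at the limit of detection. Near LOC100706093 (bases 31901878 to 31903459, plus strand) lies the kinase NIM1 gene LOC102078990 (bases 31904282 to 31911486, minus strand). That gene had 600, 702 and 629 reads after knockdown and 4, 1 and 6 in controls. The part of this neighbour in the reads of LOC100706093 was not tested. LOC100695767 (gamma) and LOC100703831 (beta) had no read in any library, although they lie on LG15 beside gadd45b, the first 14359 bases further along the linkage group and the second 1523 bases beyond that. How the authors' counting treated reads shared by near-identical copies is not given in the sources used here, and its effect on these genes was not tested.

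Summed over the 9 genes, GADD45 transcripts stood at 235.7 ± 4.0 FPKM in knockdown and 16.9 ± 2.10 FPKM in control libraries (SD, n = 3 libraries each). The sums differed 14-fold. The mix of genes also differed between the groups. In controls gadd45aa gave 43.0 ± 2.13% of the sum and gadd45ab 26.8 ± 4.37%, so the 2 alpha genes gave most of it. After knockdown gadd45b alone gave 61.7 ± 3.12% and gadd45g 23.9 ± 1.24%, from 15.4 ± 2.26% and 12.4 ± 1.54% in controls. The share of gadd45aa was 5.80 ± 0.425% after knockdown, even though its own level was higher than in controls.

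**Figure D2:**
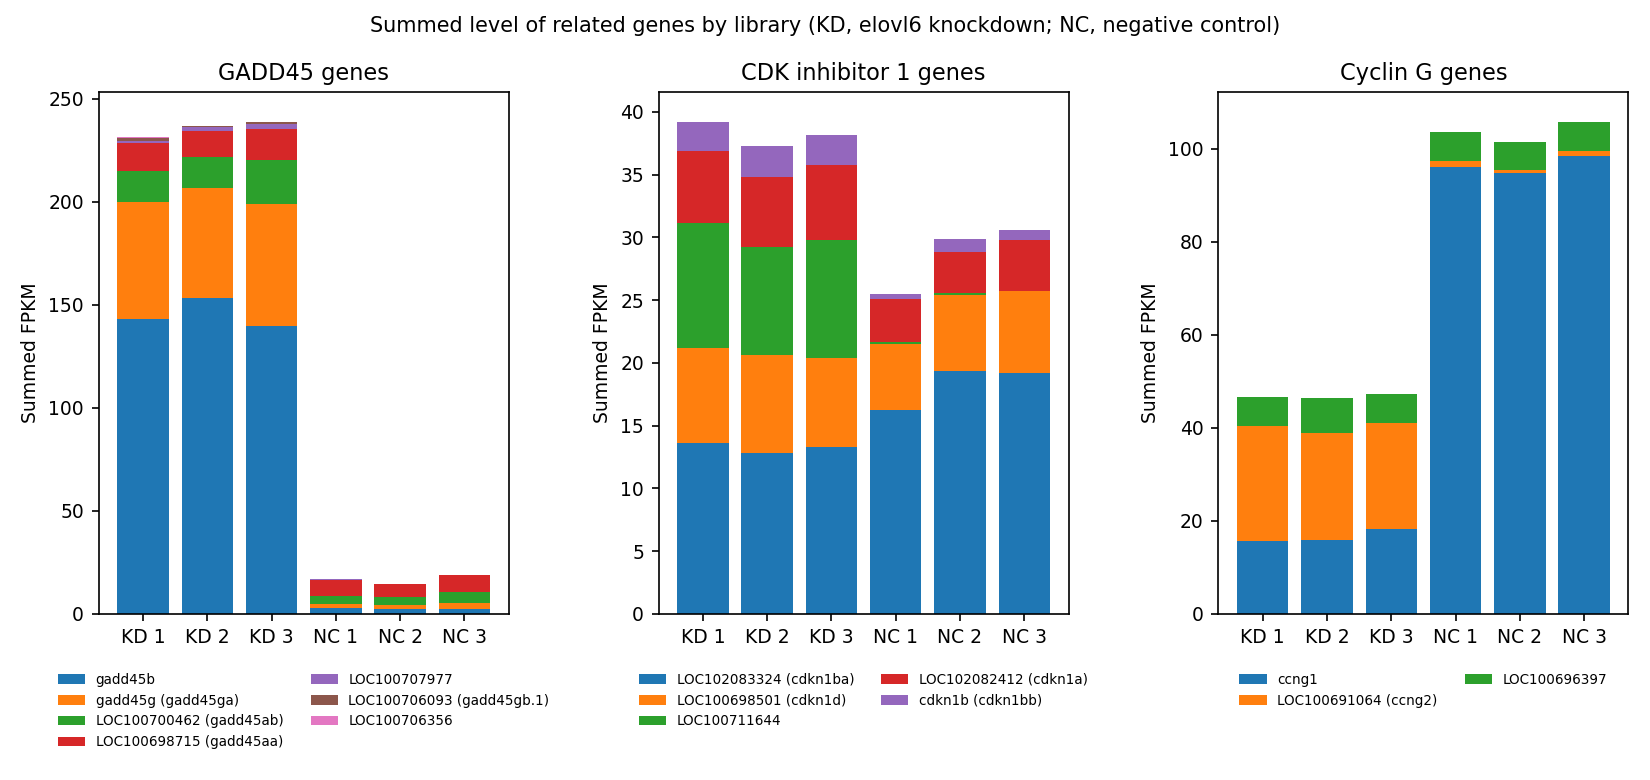
Summed FPKM of the GADD45, CDK inhibitor 1 and cyclin G genes in each library (KD, knockdown; NC, control), with 1 colour per gene within a panel; the 3 vertical axes differ in range and start at 0. The GADD45 sum is 231 to 239 FPKM in knockdown and 14.7 to 18.9 FPKM in control libraries, the CDK inhibitor sums are 1.33-fold apart on the means without overlap, and the cyclin G sum is lower after knockdown, with less ccng1 and more ccng2.

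mdm2 (LG17, bases 19617962 to 19631023) encodes the ubiquitin ligase that restrains the p53 pathway and stood at 7.95, 8.92 and 7.59 FPKM against 3.64, 4.53 and 4.10 FPKM. Every knockdown library was above every control library, and the difference was 1.98-fold (log2 fold change 0.99, SE 0.11).

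The table describes 7 genes for CDK inhibitor 1 proteins, of which 5 were tested and 2 (LOC100703282 on LG1 and LOC109196046 on LG19) had no read. Of the 5, 4 were called higher and 1 lower, beside 39.1% each way among all tested genes. Nothing is read from these counts, and cdkn1b and LOC100711644 passed the requirement only through their knockdown level. LOC102082412 is cdkn1a in RefSeq (LG5, bases 21862094 to 21866797) and encodes p21, the CDK inhibitor that in mammals carries much of the p53 arrest response. It stood at 5.74, 5.56 and 6.00 FPKM against 3.45, 3.31 and 4.09 FPKM, groups that were apart but by only 1.58-fold (log2 fold change 0.66, SE 0.16).

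The largest difference of this family was in LOC100711644 (LG7, bases 45864956 to 45871879), described as CDK inhibitor 1C, the name of mammalian p57. RefSeq gives the symbol cdkn1ca to another gene, LOC100703282, which had no read. Which gene is the counterpart of p57 was not tested, and the values here are those of LOC100711644. Knockdown libraries held 9.96, 8.63 and 9.35 FPKM and control libraries 0.0969, 0.105 and 0.0372 FPKM. The gene was close to silent in controls, with 24 reads over 3 libraries, against 2538 reads after knockdown. The difference was 116-fold (9.31 ± 0.666 against 0.0796 ± 0.0369 FPKM, log2 fold change 6.86, SE 0.18).

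The p27 genes, which hold cells in G1 in mammals, went in opposite directions. cdkn1b (cdkn1bb in RefSeq; LG7, bases 46459255 to 46463441) stood at 2.37, 2.42 and 2.37 FPKM against 0.380, 0.990 and 0.729 FPKM, 3.41-fold higher after knockdown (log2 fold change 1.77, SE 0.31). LOC102083324 (cdkn1ba; LG17, bases 6503377 to 6508181) stood at 13.6, 12.8 and 13.3 FPKM against 16.3, 19.4 and 19.2 FPKM, 1.39-fold lower (log2 fold change -0.47, SE 0.08). Neither pair of groups overlapped. The fifth tested gene, LOC100698501 (cdkn1d; LG17, bases 6622677 to 6628274), stood at 7.59, 7.78 and 7.09 FPKM against 5.26, 6.07 and 6.54 FPKM. Its log2 fold change was 0.32 (SE 0.11), and the call was lost without control library 1 (14 genes of the set were then called) and when all genes with a read were tested.

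As a sum, CDK inhibitor 1 transcripts stood at 38.2 ± 0.995 FPKM after knockdown and 28.6 ± 2.75 FPKM in controls, 1.33-fold higher with no overlap between the groups. The composition differed too. LOC100711644 gave 24.4 ± 1.12% of the sum after knockdown and 0.284 ± 0.142% in controls, while cdkn1ba gave 34.7 ± 0.235% and 63.8 ± 1.10%.

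zmat3 (LG17, bases 30969951 to 30993663, minus strand) encodes a zinc finger RNA-binding protein, in mammals a p53 target that acts on splicing and mRNA stability. It had 498, 567 and 606 reads in the knockdown libraries and 0, 1 and 0 in the controls, or 2.86, 3.27 and 3.34 FPKM against 0, 0.00539 and 0 FPKM. In effect its reads came from knockdown livers only, apart from that single control read. The ratio of reads per library total was 1879, with an exact binomial 95% interval of 337 to 74243 that covers counting error only. The fitted log2 fold change of 10.38 (SE 0.31) depends on how the near-zero controls are handled and was 12.20 without control library 2. The last 234 bases of zmat3 overlap LOC100706342, the ubiquitin ligase gene RNF14 on the opposite strand. RNF14 was itself higher after knockdown, at 9.19, 9.11 and 8.49 FPKM against 1.82, 1.5 and 2.03 FPKM, and how the authors' counting used strand is not given in the sources used here. On the other side, LOC100704479, the PI3-kinase catalytic subunit alpha gene, lies 811 bases from zmat3 and was also higher, at 11.7, 11.5 and 12.2 FPKM against 1.11, 1.17 and 1.45 FPKM (log2 fold change 3.24, SE 0.09). The part of these neighbours in the zmat3 reads was not tested.

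Cyclins G are atypical cyclins that do not drive the cell cycle; in mammals cyclin G1 is a p53 target that feeds back on Mdm2, and cyclin G2 is a growth-inhibitory protein induced by FoxO factors. ccng1 (LG2, bases 26582817 to 26586854) was the most abundant gene of the set in controls, at 96.2, 94.7 and 98.5 FPKM, and stood at 15.7, 15.9 and 18.3 FPKM after knockdown. Every knockdown library was below every control library. It was 5.84-fold lower (1510 against 9863 reads, log2 fold change -2.55, SE 0.06).

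ccng2 (LOC100691064 in the file; LG7, bases 33321670 to 33328994, minus strand) showed the reverse pattern. It stood at 24.8, 23.0 and 22.9 FPKM after knockdown and 1.16, 0.789 and 1.05 FPKM in controls. All knockdown libraries were above all control libraries, with a fitted difference of 23.2-fold (2044 against 98 reads, log2 fold change 4.54, SE 0.14). Its neighbours did not share that direction: taf1c, 1417 bases away, had a log2 fold change of -1.76, and ccni, the cyclin I gene 2649 bases away, one of -0.21.

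A second gene described as cyclin G2, LOC100696397 (LG12, bases 28606487 to 28613506), stood at 6.05, 7.48 and 6.06 FPKM against 6.29, 5.92 and 6.31 FPKM. Its groups overlapped and it was not called (log2 fold change 0.07, SE 0.15). The cyclin G sum was 46.7 ± 0.449 FPKM after knockdown and 103.6 ± 2.23 FPKM in controls, 2.22-fold lower. The share of ccng1 in that sum was 35.5 ± 2.78% after knockdown against 93.1 ± 0.287% in controls, and that of ccng2 50.5 ± 2.56% against 0.962 ± 0.171%.

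gak entered the set by its description, cyclin-G-associated kinase, and encodes a kinase that uncoats clathrin vesicles in mammals rather than a growth arrest protein. It stood at 1.76, 2.01 and 1.60 FPKM against 2.58, 2.46 and 2.84 FPKM (LG12, bases 27605551 to 27636703). The groups did not overlap, and the log2 fold change was -0.56 (SE 0.13).

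**Figure D3:**
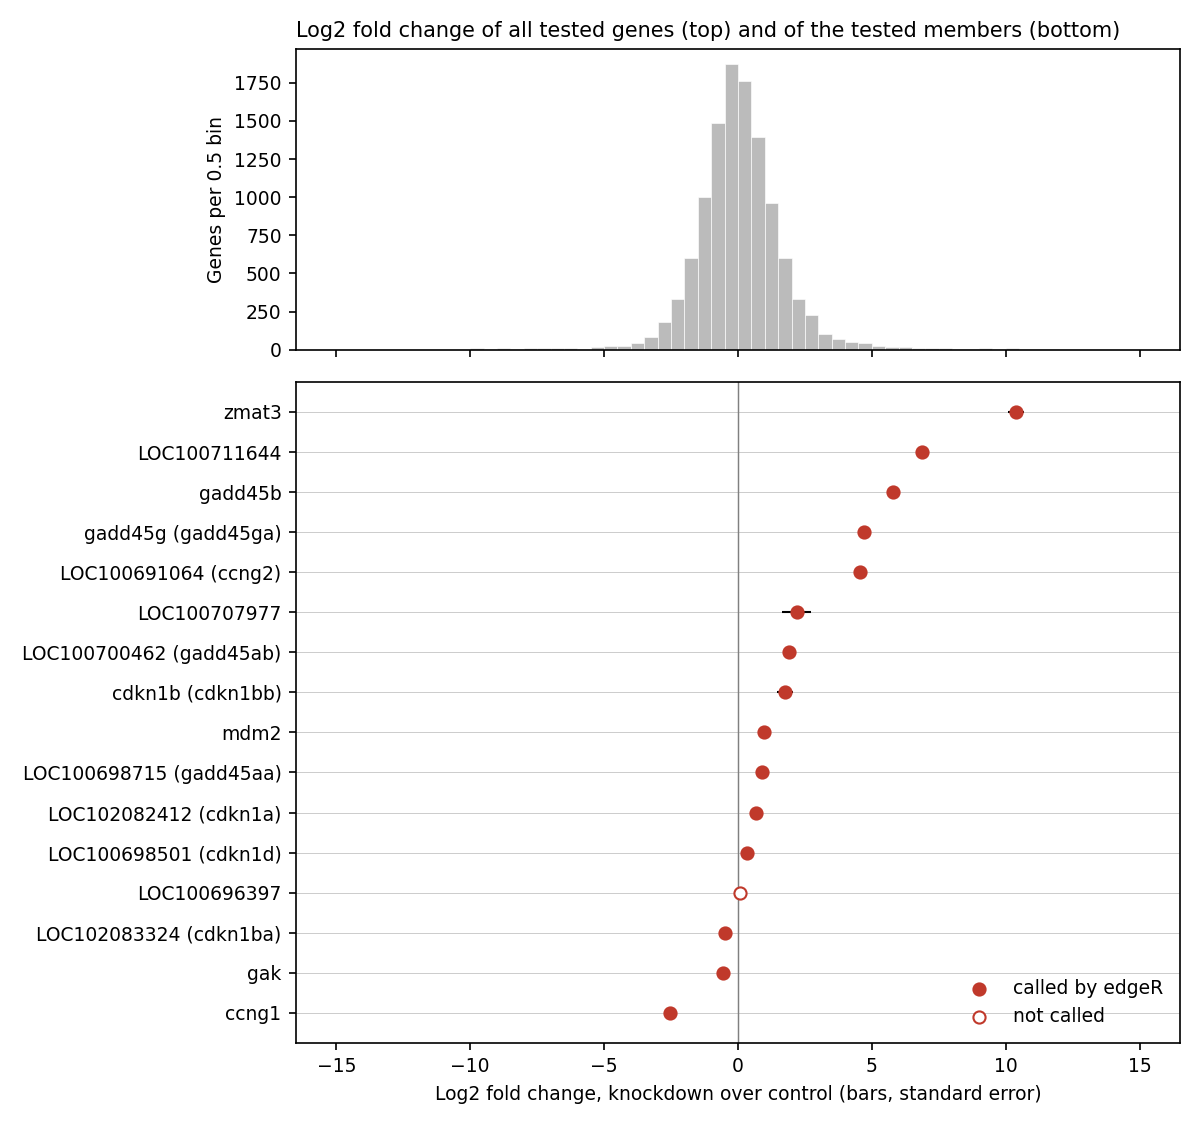
Top, number of tested genes per 0.5 bin of log2 fold change, knockdown over control, for all 11431 tested genes; bottom, log2 fold change of 16 tested genes of the set with SE bars, filled where called by edgeR. Most tested genes of the set lie within the body of the distribution; zmat3 at 10.38, LOC100711644 at 6.86, gadd45b at 5.81, gadd45g at 4.71 and ccng2 at 4.54 lie in its thin right tail and ccng1 at -2.55 on the left.

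Ordered by level, gadd45b, gadd45g and ccng2 led in the knockdown livers, and the libraries of neighbours in that order did not overlap. Below them the gadd45ab and ccng1 ranges overlapped. In controls ccng1 led, followed by cdkn1ba and gadd45aa, and gadd45b and gadd45g came 11th and 12th of 19 with overlapping ranges. The folds of low genes depend on the scale: on log2(FPKM + 1), where limma was run, the difference was 2.05 for zmat3, 3.25 for LOC100711644, 3.62 for ccng2, 0.999 for LOC100707977 and 1.01 for cdkn1b. With log2(FPKM + 0.1) it was 5.0 for zmat3 and 5.73 for LOC100711644.

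Genes with profiles closest to the 4 named genes were found by the distance between centred log2(FPKM + 1) profiles over the 6 libraries, which measures the size of the group difference as much as anything else. Closest to gadd45b was LOC100702148, insulin-like growth factor-binding protein 1, a hepatic starvation and stress protein, at a distance of 0.198. It stood at 161, 169 and 158 FPKM after knockdown and 3.86, 3.35 and 2.98 FPKM in controls. Next were the uncharacterized LOC109204042 and LOC109203120, described as short neurotoxin 3, at 0.286 and 0.293. For gadd45g the nearest were LOC100712210 (a mitochondrial acetyl-CoA synthetase 2-like gene, 0.278), LOC100702455 (0.323) and LOC102078990 (the kinase NIM1, 0.364). For ccng2 they were LOC100697001 (a GABARAP-like autophagy gene, 0.140), the serine synthesis gene phgdh (0.176) and LOC100697131 (a myosin light chain, 0.191). For zmat3 they were the phosphatase gene ctdsp2 (0.0830), the Hedgehog pathway repressor sufu (0.105) and LOC100708807 (a myosin light chain, 0.125). Adding 1 to FPKM shrinks the folds of low genes, so near profiles need not have like folds. In controls these genes averaged 2.44, 3.46 and 54.6 FPKM, while zmat3 had 1 read. Their fitted differences were 5.38-fold, 4.85-fold and 4.22-fold. phgdh differed 360-fold against 23.2-fold for ccng2, and LOC109204042 2397-fold against 56.0-fold for gadd45b.

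Genes around these proteins were read from lists of pathway genes, with the genes above left out of each. Each count stands against the 39.1% called higher and 39.1% called lower among all tested genes, whose median log2 fold change was -0.01, and nothing particular to a list is read from it. Some genes named below for the size of their change averaged under 1 FPKM in controls. They passed the requirement only through their knockdown level and had to differ. These were tp53inp1, LOC100694196, plk3, ep300b, ccnb2, mapk12b, cdk1, LOC100707378, cdk6, atf3, fosl1, tp53i3 and LOC100703314. The same held in reverse, with knockdown means under 1 FPKM, for LOC100699779, sco2, tp53bp1, ccnd1, cdk2 and LOC100700270. Of 31 other p53 targets tested, 14 (45.2%) were called higher and 10 (32.3%) lower, with a median of 0.07. Called higher were tp53inp1, an autophagy and stress response gene (12.7, 10.2 and 11.7 against 0.371, 0.576 and 0.623 FPKM, log2 fold change 4.45), and the stress kinase plk3 (2.74). LOC100694196, which RefSeq names gdf15 and the file describes as inhibin beta C chain, was at 3.33. Called lower were the apoptosis-enhancing nuclease LOC100699779 (0.714, 1.20 and 0.938 against 9.79, 11.4 and 10.4 FPKM, log2 fold change -3.47), the copper chaperone gene sco2 (LOC100698329, -2.25) and triap1, an inhibitor of apoptosis (-1.71). The file's p53 signaling annotation, which 17 of the 23 genes carry, gave, with those genes left out, 22 higher and 20 lower of 49 tested and a median of 0.16. Within it tp53i3, a p53-induced oxidoreductase, was higher (log2 fold change 3.78, and 4.97 without control library 2) and LOC100700270, described as the survival protein bcl-2-like protein 1, lower (-2.99).

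Among p53 pathway regulators and DNA damage kinases, 12 of 26 tested were called higher and 9 lower, with a median of -0.05. The acetyltransferase genes ep300b (LOC100700725, log2 fold change 1.84) and kat5 (1.34) and the apoptosis-promoting tp53bp2 (1.5) were higher. The DNA damage kinase chek2, which signals strand breaks, was lower, at 10.9, 8.54 and 7.88 FPKM against 20.8, 20.3 and 21.0 FPKM (-1.20). Also lower were the break-binding protein gene tp53bp1 (-1.86) and the kinase gene hipk2 (LOC100701827, -0.87).

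Among genes for the binding partners of GADD45 and the kinases below them, 9 of 23 tested were higher and 4 lower, with a median of 0.03. map3k4, the kinase that GADD45 proteins activate in mammals, was lower at 1.49, 1.37 and 1.53 against 2.54, 2.68 and 2.58 FPKM (log2 fold change -0.84). mapk14a, a p38 kinase gene, was also lower (LOC100699484, -1.53), as was the JNK gene mapk8b (LOC100702235, -0.68). Another p38 gene, mapk12b (LOC100701183), was higher (2.89). The mitotic partners cdk1 and cyclin B2 were higher: cdk1 stood at 3.38, 4.94 and 2.14 FPKM against 0.348, 0.913 and 0.430 FPKM (2.62, SE 0.43). Cyclin B2 (ccnb2, LOC100692470) stood at 1.54, 4.79 and 1.92 FPKM against 0, 0.156 and 0.0693 FPKM (5.13, SE 0.63). Knockdown library 2 was the highest for both. Without it the ccnb2 value was 4.47, and without control library 2 it was 6.08.

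Of 21 other growth arrest genes, 11 were higher and 6 lower, with a median log2 fold change of 0.47. LOC100707378, described as CDK4 inhibitor B, a blocker of G1 kinases, had 48, 36 and 59 reads after knockdown and 0, 1 and 0 in controls. Its fitted log2 fold change was 6.84 (SE 0.74), and 8.66 without control library 2. ddit4, which restrains mTORC1 under stress, was at 34.2, 28.9 and 28.8 FPKM against 0.842, 0.779 and 1.46 FPKM (4.87, SE 0.17). ddit3, the transcription factor CHOP of the integrated stress response, was at 115, 114 and 112 FPKM against 21.1, 19.1 and 22.0 FPKM (2.45, SE 0.06). Lower were the chromatin readers ing5a (LOC100709853, -1.29) and ing1 (-1.20) and the antiproliferative gene tob1b (LOC100689983, -0.81).

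Of 16 cell cycle drivers tested, 8 were called higher and 7 lower, with a median of 0.71. Besides ccnb2 and cdk1, the G1 kinase gene cdk6 was higher (log2 fold change 2.10). The G1 genes ccnd1 (0.929, 0.733 and 0.892 against 4.28, 4.75 and 4.52 FPKM, -2.41) and cdk2 (-2.40) and the replication helicase gene mcm7 (-1.88) were lower. The related genes mcm2 (1.04), mcm3 (1.38), mcm4 (0.92) and mcm5 (0.81) were called higher, and mcm6 (0.61) was not called. Of genes described as cyclin D2, LOC100707642 was called higher (1.97) and ccnd2a (LOC100698323) lower (-0.45). FPKM levels of these mcm and cyclin D2 genes are not given here. In the file's Cell cycle annotation, 34 of 83 tested genes were higher and 23 lower, with a median of 0.11, among them LOC100703314, described as Myc-2 (4.67), and gsk3b (-2.12).

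Immediate early genes, which respond within minutes to stress, growth factors or tissue handling, had 13 of 17 tested higher and 2 lower, with a median log2 fold change of 1.75. atf3, a stress-induced repressor, was at 46.3, 46.4 and 45.6 FPKM against 0.924, 0.762 and 0.817 FPKM (5.77, SE 0.10). The AP-1 subunit genes fosl1 (4.46) and fosl2 (3.27) were higher too. The 2 genes called lower were both described as early growth response protein 1: egr1, at 2.83, 3.21 and 4.34 against 17.5, 17.6 and 15.8 FPKM (-2.30), and LOC100694374 (-0.66). The part of what moved these genes in the levels of the GADD45 genes was not tested.

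**Figure D4:**
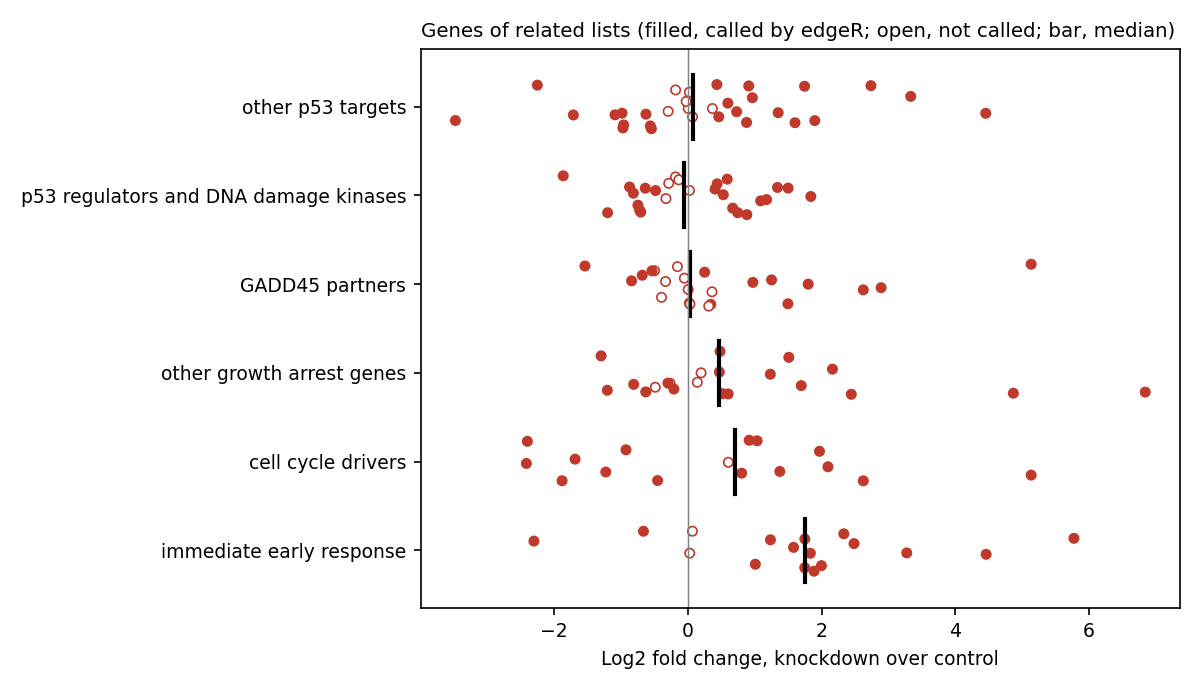
Log2 fold change, knockdown over control, of the tested genes of 6 related lists, filled where called by edgeR and open where not, with a black bar at the median of each list. The medians run from -0.05 for p53 regulators and DNA damage kinases to 1.75 for immediate early genes, and each list has called genes on both sides of 0.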

How the data were processed

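The table analysed holds, per the file headers, a deposited count of reads and an FPKM value for each gene in 6 libraries; the authors' FPKM equalled count over exon length and library total in 100% of values within a relative tolerance of 1e-05. Per the labels' protocols, oligo-dT beads gave the RNA for the libraries, which were sequenced as 150 bp pairs. The tools cutadapt 1.9 and HISAT stand in the submitters' processing notes. Not given in the sources used here are the aligner version, the counting program, the strand setting and the genome build. Coordinates are those of the file and equal those of NCBI's O_niloticus_UMD_NMBU gene table for all 23 genes; that table held 29526 of 29528 identifiers and gave the RefSeq symbols. No column of another study's samples was present.

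The test covered 11431 genes whose FPKM averaged 1 or more across the 6 libraries, and left out 18097. The counts were compared by edgeR 4.0.16 in R 4.3.3 (TMM scaling, quasi-likelihood test, no covariate, Benjamini-Hochberg adjustment over all tested genes, call under 0.05). All differences are knockdown over control, and the fold of a single gene is the fitted one. An SE is the size of the log2 fold change over the root of its F statistic. The common biological coefficient of variation was 9.40%. Alternatives were limma 3.58.1 on log2(FPKM + 1) and log2(FPKM + 0.1), DESeq2 1.42.0, other scalings and filters, left-out libraries and a replicate block. The fit was also run on simulated counts in which only a small share of genes changed. In these data 78.2% of tested genes were called, a setting that the simulation did not cover. Depth was 14373269, 14341242 and 14973737 reads in knockdown and 16547278, 15322360 and 17245179 reads in control libraries. Intervals cover counting error only, and the floor covers that of the control reads only.

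The genes and all 14 lists were chosen with earlier results of these data known. Of the set, every gene with a read is named, apart from 1 tested gene that is counted but not reported here. From each pathway list, up to 3 called genes per direction with the largest change and no overlap between groups are named, and 3 nearest profiles for each of gadd45b, gadd45g, zmat3 and ccng2. The other mcm genes and the cyclin D2 genes are named beside mcm7 and ccnd1, and the other p38 genes beside mapk14a. Neighbouring genes were chosen by position. Of cell type lists only counts and sums are given.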

Additional observations from a re-analysis of the deposited data

How the results depend on the processing

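DESeq2 and limma with either pseudocount each called 15 genes of the set. So did edgeR scaled by DESeq2 size factors, by library totals or with exocrine pancreas markers left out before scaling. These settings called 8782 to 8940 of all 11431 tested genes, and nothing is read from the count in the set. Leaving out 1 library in turn called 14 to 15 of them and 8531 to 8784 of all genes. No called gene of the set and no gene named from the lists for its size of change changed sign in these alternatives. With a minimum mean of 5 FPKM fewer genes were tested, and the calls were 4662 of all genes (2341 higher, 2321 lower), 9 of the set, 7 higher and 6 lower of other p53 targets, 5 and 3 of p53 regulators, 2 and 1 of GADD45 partners, 0 and 3 of cell cycle drivers, 10 and 10 of the p53 signaling annotation, and 14 and 7 of the Cell cycle annotation. With no filter, 16 cell cycle drivers were called higher and 8 lower. Of all genes, 11873 were then called, 6005 higher and 5868 lower. The numbers of genes tested with these other filters are not given here, so no share is stated. No pairing by replicate number was seen: deviations of same-numbered libraries correlated at -0.00524 to 0.00446 over 3 pairs. Differently numbered libraries lay at -0.00546 to 0.0093. Whether the numbers mark a shared tank or preparation is not in the labels and was not tested. With the replicate block, 8856 genes and 15 of the set were called. Depth limits the statements on LOC100706356, LOC100706093 and the control levels of zmat3, LOC100707378, phgdh and LOC109204042.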
